A study of Homo sapiens with 7 samples.

Results

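The genes of the RNA polymerase II (Pol II) initiation machinery were taken from a table of expression values by their symbols, as the genes named POLR2A to POLR2L, the numbered genes of TFIIA, TFIIB, TFIIE, TFIIF and TFIIH (GTF2A, GTF2B, GTF2E, GTF2F and GTF2H), the TBP-associated factors (TAF), the Mediator subunits (MED) and TBP. The rule found 76 genes among the 26175 of the table. They were 12 Pol II subunits, 3 genes of TFIIA, 2 of TFIIE, 2 of TFIIF, 8 of TFIIH, 19 for TBP and the TAFs, and 30 for Mediator. GTF2B itself carries no further digit in its symbol and was left out by the rule, so its values are given with the other genes of the pathway.

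The study mapped where transcription starts, on both strands, in human T-47D breast cancer cells, which the paper describes as the line T47D/A1-2. Cells were grown in medium with 10% serum and moved, before harvest, to serum stripped with charcoal and dextran (5%, 24 hours or longer), and this was the only condition. Start-seq sequences the capped 5′ ends of short nascent RNAs, so that each call is the single nucleotide at which Pol II began, and the calls used here come from replicate 1 of its 2 libraries. RNA-seq expression was deposited as 1 FPKM value (fragments per length of transcript, scaled to the mapped fragments) for each gene, estimated after the 3 replicates had been merged, so no value below has an error between replicates and no test was possible. All 10 luminal breast markers examined were between ESR1 at FPKM 44.1 and KRT8 at 1142, with PGR at 68.5 and GATA3 at 360, while KRT5, KRT14, CD3E and CDH5 were listed at 0 and the fibroblast marker COL1A1 was at 8.82.

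At a Pol II promoter, TFIID, which holds TBP and the TAFs, binds the core promoter, TFIIA and TFIIB steady it, and TFIIF brings in Pol II. TFIIE then recruits TFIIH, whose helicase opens the DNA and whose kinase phosphorylates the tail of the largest Pol II subunit, while Mediator connects the assembly to activators bound elsewhere. Many mammalian promoters also start a short, unstable RNA on the opposite strand, either upstream of the gene (an upstream antisense TSS, or uaTSS) or within its beginning (a downstream antisense TSS, or daTSS). The genes below encode the machinery that makes each of these starts, and are themselves transcribed by it.

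A gene TSS was tied to a member where it lay on the strand of the gene, within 1000 nt of its listed locus, and within 1000 nt of an annotated transcript start of that gene. This gave 65 gene TSSs at 63 of the 76 members. Any gene TSS within 1000 nt of the listed locus, whichever gene it belonged to, was found for 68 members, against 49.9% of all genes. Among protein-coding genes, 51.3% had a gene TSS tied in the same way, and among those with an FPKM of at least 1, 80.5%. All positions are in hg19. Sequences are written 5′ to 3′ in lower case from the chromosomes of GRCh37, the same assembly.

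The promoter of MED12, part of the kinase module of Mediator, is shown because all 3 kinds of TSS lay within it. The uaTSS was called at chrX:70338279, the gene TSS at chrX:70338369 and the daTSS at chrX:70338382, and capitals mark these 3 bases on the strand of the gene.
MED12 (chrX:70338274-70338389, plus strand): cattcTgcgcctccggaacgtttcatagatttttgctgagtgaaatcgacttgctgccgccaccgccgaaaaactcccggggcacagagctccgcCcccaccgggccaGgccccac

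There were 3 members with TATAA or TATAT at the position where TBP is known to bind, with a match anywhere between bases -35 and -24 relative to the gene TSS. They are shown with the motif and the called start in capitals, and they encode the largest subunit of Pol II, the precursor of the large TFIIA subunits, and a subunit of the Mediator head.
POLR2A (chr17:7387649-7387699, plus strand): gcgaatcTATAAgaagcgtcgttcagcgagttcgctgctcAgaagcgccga
GTF2A1 (chr14:81687209-81687259, minus strand): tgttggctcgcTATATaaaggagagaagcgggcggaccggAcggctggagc
MED22 (chr9:136214942-136214992, minus strand): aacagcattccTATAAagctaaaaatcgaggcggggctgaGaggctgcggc

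The letters CCGGAAG, the core recognized by ETS factors, were the motif whose share at the members exceeded that at all gene TSSs by the widest margin, although proteasome genes had a like share. At 11 members a copy in either direction began within 30 bases upstream of a start, and 3 of these, picked after their values were seen, are shown as examples with the motif and the called start in capitals.
MED7 (chr5:156569873-156569938, minus strand): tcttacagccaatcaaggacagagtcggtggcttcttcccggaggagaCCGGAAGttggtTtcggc
TAF12 (chr1:28969576-28969641, minus strand): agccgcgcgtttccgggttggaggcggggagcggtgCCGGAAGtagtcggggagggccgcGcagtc
TAF13 (chr1:109618624-109618689, minus strand): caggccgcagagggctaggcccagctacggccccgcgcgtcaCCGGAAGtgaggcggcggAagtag

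For comparison, the gene TSS of TBP, with its bases -1 and +1 in capitals, had no such TATA sequence.
TBP (chr6:170863420-170863470, plus strand): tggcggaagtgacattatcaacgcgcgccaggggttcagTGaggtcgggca

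These 2 promoters are shown whole because a called gene TSS of a neighbour lay close upstream on the other strand. Both called starts are in capitals, the neighbour's at the left.
RPL7A and MED22 (chr9:136214947-136215109, minus strand): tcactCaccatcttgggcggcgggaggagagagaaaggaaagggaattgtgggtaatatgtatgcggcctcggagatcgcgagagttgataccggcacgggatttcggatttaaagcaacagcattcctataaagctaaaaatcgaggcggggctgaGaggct
EIF2B1 and GTF2H3 (chr12:124118210-124118412, plus strand): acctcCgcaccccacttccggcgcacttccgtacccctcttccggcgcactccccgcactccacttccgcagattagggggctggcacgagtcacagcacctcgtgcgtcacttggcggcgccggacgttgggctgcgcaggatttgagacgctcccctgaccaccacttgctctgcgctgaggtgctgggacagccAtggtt

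The last set shows 3 daTSSs that lay within 10 nt of the downstream end of a CpG island, read on the antisense strand with bases -1 and +1 of the daTSS in capitals.
MED10 daTSS (chr5:6378273-6378302, plus strand): tcttggcaacaggcTGgagcgcgggccccg
MED13L daTSS (chr12:116714218-116714247, plus strand): gaaaaagctttctcCAccttccgtcggctc
MED15 daTSS (chr22:20862229-20862258, minus strand): agggctcgttggttTGcagagctcggcccc

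FPKM is scaled by transcript length, so levels can be compared between genes. The members had a median FPKM of 22.4 (95% interval of the median over genes 19.5 to 27.4) and a range from 0.0293 to 265. An FPKM of at least 1 was found for 72 of the 76, against 46.9% of all genes and 59.9% of protein-coding genes. The median was 0.528 over the whole table and 3.99 over protein-coding genes, and 68 members exceeded the latter. The genes of the machinery were thus nearly all expressed, at a typical level between the 15 subunits of Pol I and Pol III (median 12.6) and the 39 proteasome subunits (median 96.6).

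**Figure D1:**
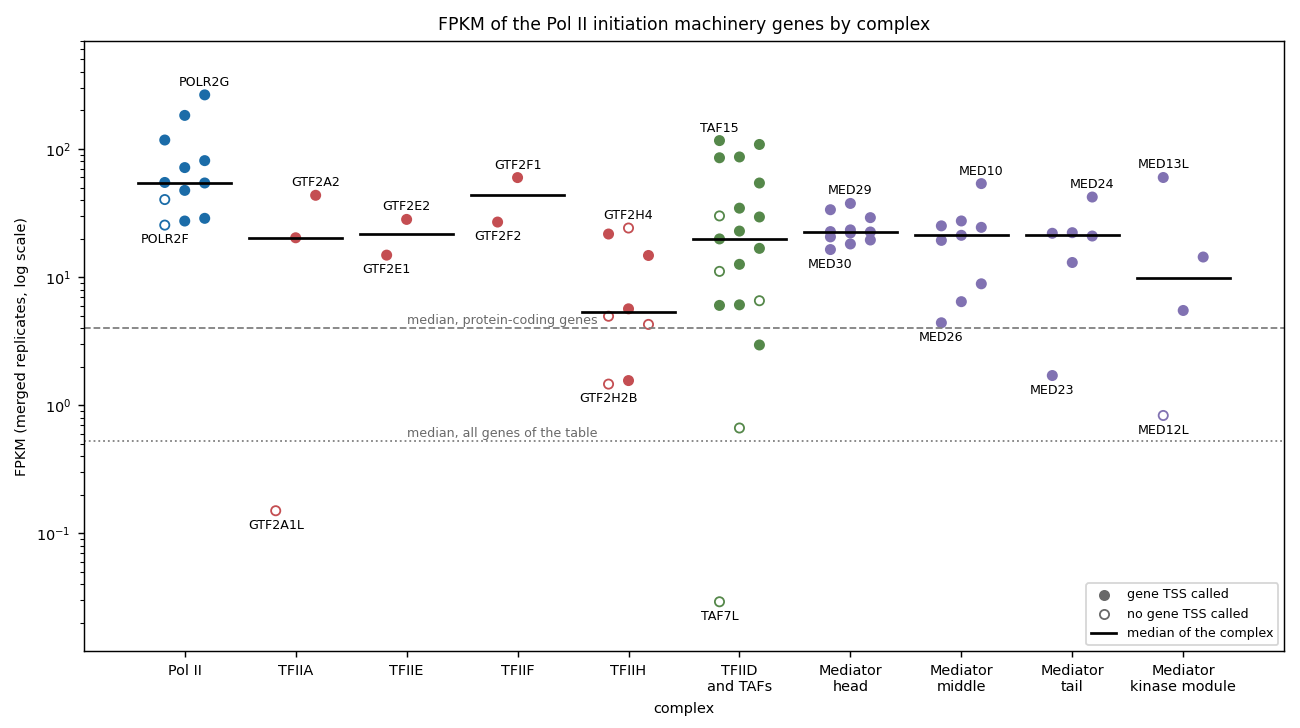
Each point is the FPKM (log axis) of 1 of the 76 genes, by complex, with the median of the complex as a black bar, and open points mark the 13 genes without a tied gene TSS. Pol II subunits lay between 25.5 and 265, TFIIH had a median of 5.31 with the copies of GTF2H2, and 4 genes, GTF2A1L, TAF1L, TAF7L and MED12L, lay under 1.

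The subunits of Pol II had the highest median of any complex, at 54.6, and all 12 lay between 25.5 and 265. POLR2G, which with POLR2D forms the stalk of the enzyme, was the highest of all 76 members at 265, whereas POLR2D was at 27.4. The stalk partners thus differed by more than the catalytic pair, POLR2A at 71.7 and POLR2B at 54.3. POLR2F was the lowest subunit at 25.5.

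Of the subunits, 5 also serve Pol I and Pol III. These had a median FPKM of 81.2, with POLR2H at 183, POLR2K at 118, POLR2L at 81.2, POLR2E at 47.6 and POLR2F at 25.5. The 7 subunits found only in Pol II had a median of 54.3. The ranges overlapped, since POLR2G, found only in Pol II, exceeded every shared subunit.

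Among the general transcription factors, both genes of TFIIF exceeded the member median, GTF2F1 for the large subunit at 59.9 and GTF2F2 for the small subunit at 26.9. TFIIE, which recruits TFIIH, had GTF2E1 (alpha) at 14.9 and GTF2E2 (beta) at 28.2. In TFIIA the small subunit, GTF2A2, was at 43.5 and the precursor of the larger ones, GTF2A1, at 20.3. GTF2A1L, its germ cell relative, was at 0.150.

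TFIIH had the lowest median of any complex, 5.31, but this rested on near-identical copies of GTF2H2, and without these 3 copies the median of its 5 core subunits was 14.8, a value added after the data were seen. The core subunits GTF2H4 and GTF2H3 were at 24.2 and 21.7, and GTF2H1 was at 14.8. GTF2H5, the smallest core subunit, was at 5.66. GTF2H2 was at 4.28, and its copies were GTF2H2B at 1.46, GTF2H2C at 1.56 and GTF2H2C_2 at 4.96. These copies are near-identical, GTF2H2C and GTF2H2C_2 share a listed locus, and how reads were divided among them was not tested, so their single levels are uncertain.

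The helicases and the kinase of TFIIH fall outside the rule. The helicase ERCC3 was at 31.6 and ERCC2 at 10.3, and in the kinase module CDK7 was at 38.6, its cyclin CCNH at 33.9 and the assembly factor MNAT1 at 57.7. All 3 kinase genes thus exceeded the highest TFIIH member, GTF2H4.

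TBP, which binds the TATA box and bends the DNA, was at FPKM 12.6. The TAFs ranged more widely than any other group, from TAF7L at 0.0293 to TAF15, a TFIID-associated RNA-binding protein, at 116. TAF7 was at 109, TAF10 at 86.7, TAF9 at 85.5 and TAF11 at 54.3. TAF6, a scaffold subunit, was at 30.1, TAF2 at 16.8 and TAF3, a reader of histone methylation, at 11.1. TAF1, the largest subunit, was at 6.55, TAF8 at 6.08, TAF4 at 6.02 and TAF5 at 2.96.

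Mediator had a median of 21.6 over 30 genes. The 11 genes of the head, which contacts Pol II, lay between MED30 at 16.4 and MED29 at 37.6, so that the highest was 2.29 times the lowest. The corresponding ratio was 10.4 in Pol II, 12.2 in the middle module of Mediator, 24.7 in the tail and 71.9 in the kinase module, so that the even levels held for the head and not for Mediator as a whole. In the middle module MED10 was highest at 53.7, and MED26, which joins Mediator to elongation factors, was lowest at 4.41. In the tail, which receives many activators, MED24 was highest at 42.2 and MED23 lowest at 1.71. The kinase module had MED13L at 59.9, MED13 at 14.4, MED12 at 5.50 and MED12L at 0.833, beside its kinases CDK8 at 12.6 and CDK19 at 6.04 and their cyclin CCNC at 25.1.

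Several members are pairs of related genes, and in some pairs 1 gene dominated. TAF7 was 3704 times TAF7L, and GTF2A1 was 135 times GTF2A1L, on a linear scale. The ratio was 9.85 for TAF1 over TAF1L, 6.60 for MED12 over MED12L and 3.62 for TAF4 over TAF4B. In these 5 pairs the second gene had no called gene TSS. TAF1L lies within the same family of near-identical sequence as TAF1, so its value of 0.665 is uncertain.

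In other pairs the gene with the suffix was the higher one, or the levels were close. TAF5L, which belongs to the SAGA coactivator, was 7.74 times TAF5, its relative in TFIID, and MED13L was 4.17 times MED13. TAF6, by contrast, was 1.51 times its SAGA relative TAF6L. TAF9, at 85.5, was 2.59 times TAF9B, and TBP was 1.21 times TBPL1. The partners within a complex also differed little, at 1.90 for GTF2E2 over GTF2E1 and 2.22 for GTF2F1 over GTF2F2. None of these ratios has a replicate error.

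**Figure D2:**
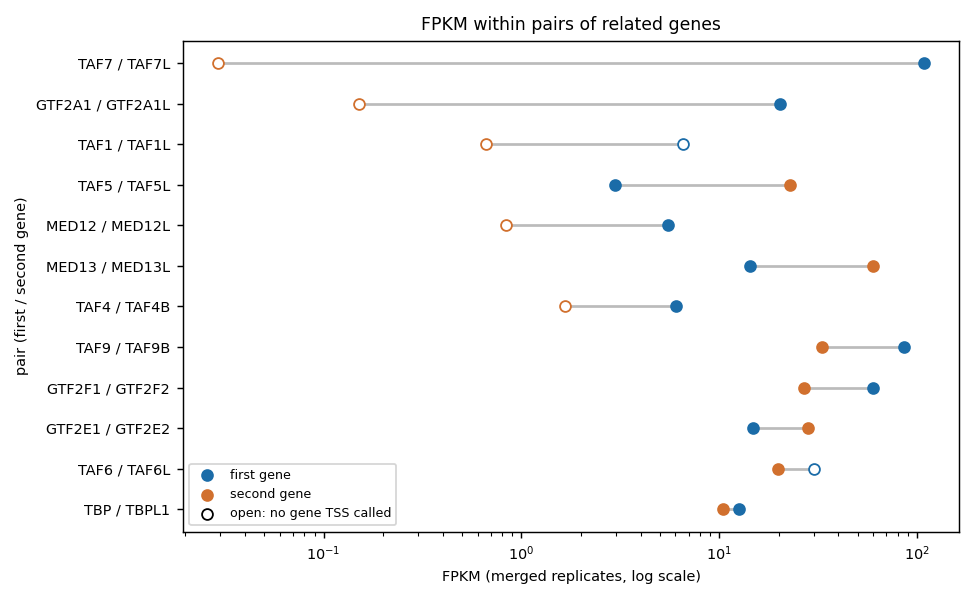
Each row is a pair of related or partner genes, with FPKM on a log axis, and open points are genes without a called gene TSS. The widest gap was between TAF7 (109) and TAF7L (0.0293) and the narrowest between TBP (12.6) and TBPL1 (10.4).

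There were 13 members with no tied gene TSS. GTF2A1L, TAF7L, TAF1L and MED12L were those under FPKM 1. GTF2H2 and GTF2H2B are near-identical copies. GTF2H2C_2 was not found by symbol in the gene models, so no gene TSS could be tied to it, although that of GTF2H2C lay within 1000 nt of their shared locus. GTF2H4 has its locus listed on an alternative haplotype of chromosome 6, but no gene TSS was called at its annotated starts on chromosome 6 either. The other 5 were POLR2J at FPKM 40.3, TAF6 at 30.1, POLR2F at 25.5, TAF3 at 11.1 and TAF1 at 6.55. POLR2J, a small subunit of Pol II, has near-identical relatives, of which POLR2J2 was at 0.0525 and POLR2J3 at 0.563. TSSs were called by the authors from uniquely mapped reads, and the part of repeated sequence in these missing calls was not tested. The members without a gene TSS had a median FPKM of 4.96 and those with one 22.9.

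The called starts lay close to the annotated ones. The median distance was 4 nt, 11 of the 65 gene TSSs were exactly on an annotated start of the gene, and 35 (53.8%) were within 5 nt. At all gene TSSs, 41.0% were within 5 nt of an annotated start of any gene. A further 8 were over 100 nt away, with TAF5 at 751 nt, MED13 at 691, TAF7 at 378, MED19 at 350, TAF5L at 323, TAF6L at 303, a second start of POLR2H at 217 and a second start of TAF9 at 190. POLR2H and TAF9 were the members with 2 called gene TSSs. For POLR2H they were at chr3:184081149, on an annotated start, and at chr3:184080014. For TAF9 they were at chr5:68665338 and chr5:68665646, and the former also lies at the start of AK6.

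An upstream antisense start was called at 36 of the 65 gene TSSs, 55.4% (exact Clopper-Pearson 95% interval 42.5% to 67.7%), against 53.1% of all gene TSSs. A downstream antisense start was called at 11, 16.9% (8.76% to 28.3%), against 28.4% of all gene TSSs. The uaTSS share of the members was thus near that of all genes. The daTSS share lay below that of all genes, with an upper bound just under their value. This margin is narrow, and POLR2H and TAF9 count with 2 starts each. With 1 gene TSS per gene the daTSS share was 17.5% of 63, for which no interval is given. The intervals cover the counting of calls in 1 library only, and the read depth behind a call is unknown because the deposited score was 0 for every call. Both calls were made at 10 gene TSSs, 15.4% (7.63% to 26.5%), against 17.5% of all gene TSSs. Neither was made at 28, 43.1% (30.8% to 56.0%), against 35.9% of all. Both intervals held the value of all gene TSSs. A uaTSS alone was called at 26 and a daTSS alone at 1, that of MED11.

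By complex, the daTSS calls were few, and they are set beside the 28.4% of all gene TSSs. Mediator had a daTSS at 8 of its 29 gene TSSs, 27.6% (12.7% to 47.2%), whereas the other members together had 3 of 36, 8.33% (1.75% to 22.5%). The intervals of these shares overlapped. Within Mediator, the tail had 3 of 6, the kinase module 2 of 3, the middle 2 of 9 and the head 1 of 11. Outside Mediator, Pol II had 2 of 11 and TBP with the TAFs 1 of 15. TFIIA, TFIIE, TFIIF and TFIIH had 0 of 10, which allows a share of up to 30.8%. The interval of each of these complexes and modules held the 28.4% of all gene TSSs, so no order among them can be read from these counts.

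The uaTSS calls were at 17 of 29 gene TSSs of Mediator, 7 of 11 of Pol II, 9 of 15 of TBP and the TAFs and 3 of 10 of TFIIA, TFIIE, TFIIF and TFIIH. The interval of the last share, 6.67% to 65.2%, held the 53.1% of all gene TSSs. These 3 were GTF2A1, GTF2F1 and GTF2F2. Neither kind of antisense call was thus made at the tied gene TSSs of the TFIIE members or of the 4 TFIIH members that had one. Of these, GTF2E1, GTF2H1, GTF2H3 and GTF2H5 had a gene TSS of another gene within 1000 nt upstream on the other strand. Over all such gene TSSs, 79.0% had neither call. There the authors' filter could remove daTSSs, as it dropped those near an annotated start on their own strand. The neighbour's start itself also lay in the window searched for uaTSSs. For comparison, Pol I and Pol III subunits had a uaTSS at 9 of 16 gene TSSs and a daTSS at 4, and proteasome subunits at 21 and 9 of 32.

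**Figure D3:**
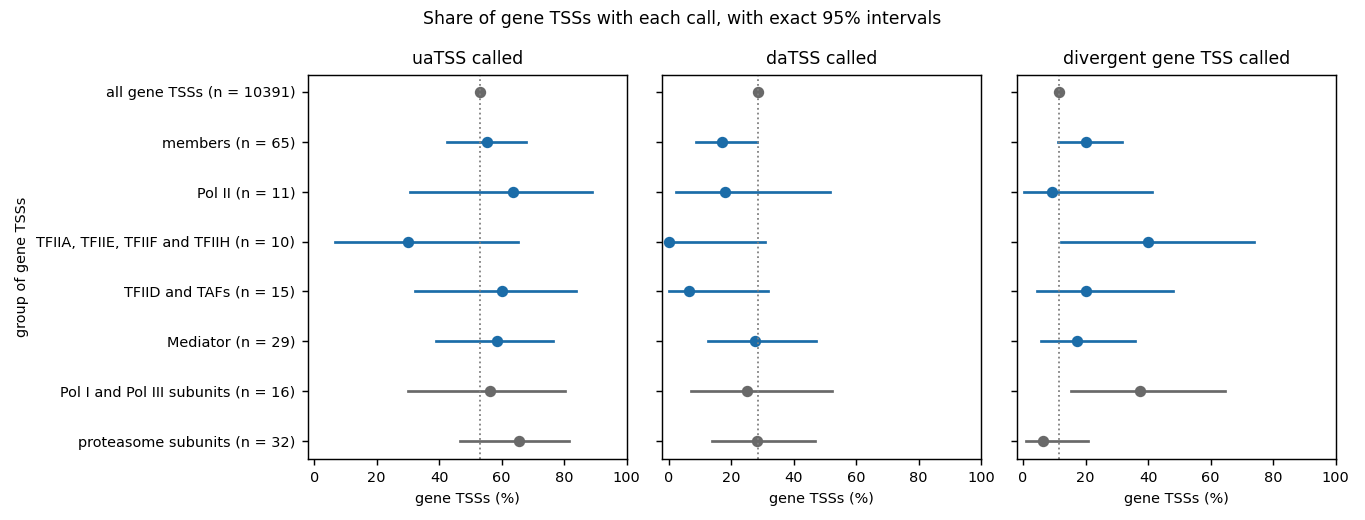
Points give the percent of gene TSSs with a uaTSS (left), a daTSS (middle) and a gene TSS of another gene on the opposite strand within 1000 nt upstream (right), and lines give exact 95% intervals, with a dotted line at the value of all gene TSSs. The daTSS share was 27.6% in Mediator and 0 of 10 in TFIIA, TFIIE, TFIIF and TFIIH, whose divergent share was 40%.

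Levels of the genes in these classes overlapped. The genes with a daTSS ranged from MED23 at FPKM 1.71 to MED13L at 59.9, with a median of 27.4. Those with a uaTSS had a median of 24.5 and those with neither call 22.9. The highest Pol II subunit, POLR2G, and TAF7 were among those with neither call.

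The 11 daTSSs of members lay at a median of 365 nt downstream of the gene TSS (95% interval 166 to 613 nt), against 507 nt over all genes, and none was beyond 688 nt although the search window extended to 2000 nt. The nearest was that of MED12, only 13 nt downstream, where the annotated start of the gene lies farther downstream still. As the MED12 sequence above shows, its 3 starts fit within the printed stretch, the uaTSS 90 nt upstream. MED25, a tail subunit bound by activators, had the next most compact pattern, with its uaTSS 24 nt upstream and its daTSS 175 nt downstream, inside exon 1.

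At the other 9 genes the daTSS was in intron 1, which makes 9 of 11 in an intron, 81.8% (48.2% to 97.7%). The paper also placed most of all daTSSs in introns, at a proportion similar to that with shuffled gene models. An intron is therefore not particular to the members. In POLR2B the daTSS lay at 166 nt, in MED23 at 234, in MED11 at 276, in MED15 at 365 and in MED10 at 398. It was at 422 nt in MED13L, 569 in MED7, 613 in POLR2D and 688 in TAF12. Exon 1 ended between 47 nt (MED7) and 211 nt (MED10) downstream of the gene TSS in 8 of these. The called gene TSS of MED13L lay 210 nt past the end of exon 1 of its main transcript, so that both of its starts were in that intron.

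**Figure D4:**
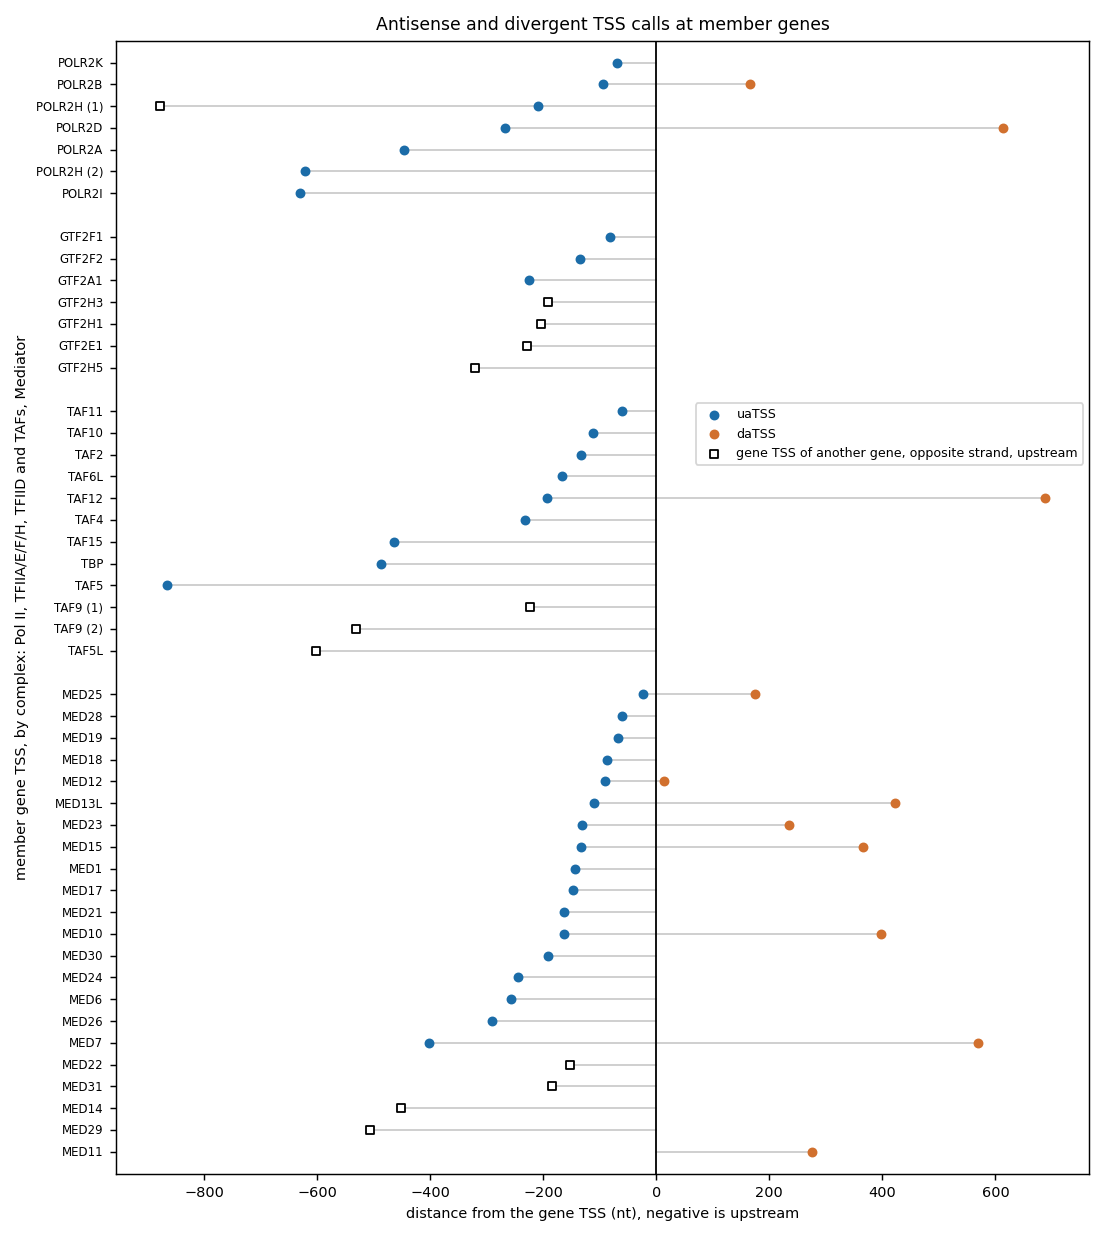
Each row is a member gene TSS with an antisense or divergent call (1 divergent pair is not shown), drawn at 0, with distances in nt (negative is upstream), uaTSSs as blue points, daTSSs as orange points and gene TSSs of neighbours as open squares; POLR2H (1) and TAF9 (2) are the starts nearer to an annotated start. Most uaTSSs sat within 300 nt, daTSSs were mostly at Mediator genes, and rows with a square rarely had a uaTSS. The squares are themselves antisense starts within the window searched for uaTSSs.

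All 11 of these gene TSSs lay in a CpG island, a stretch dense in CG dinucleotides that marks most promoters of widely used genes. The daTSS was within 50 nt of the downstream end of that island at 6 of the 11 (54.5%), and at 307 of 2500 (12.3%) over all gene TSSs in an island with a daTSS. This distance was chosen after the members' values were seen, which sets the contrast. Within 250 nt of the end were 8 of the 11, 72.7% (39.0% to 94.0%), against 53.3% of the 2500, a value inside that interval. The daTSS was 4 nt beyond the end in MED10, 6 nt beyond in MED13L and 26 nt beyond in POLR2B. It was 9 nt inside in MED15, 38 nt inside in MED23 and 45 nt inside in MED25. The farthest from an island end were MED12, 484 nt inside, and TAF12, 661 nt beyond.

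The uaTSSs of members lay at a median of 163.5 nt upstream (131 to 233 nt), against 200 nt over all genes, and 29 of the 36 were within 300 nt. The nearest were those of MED25 at 24 nt, MED28 and TAF11 at 61 nt each, MED19 at 68 nt and POLR2K at 69 nt. The farthest were those of TAF5 at 866 nt, POLR2I at 630, the second start of POLR2H at 621, TBP at 488 and TAF15 at 464. TAF5 is also the member whose gene TSS lay farthest from its annotated start.

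Some of these uaTSSs coincided with annotated genes. An annotated start on the same strand as the uaTSS lay within 100 nt at 8 of the 36, against 20.5% over all uaTSSs. The uaTSS called for POLR2I was exactly on the start of TBCB, and that called for the second start of POLR2H exactly on a start of CLCN2. Others were near annotated non-coding transcripts, 5 nt from MED28-DT and 35 nt from TAF12-DT. The uaTSS of MED23 was 91 nt from a start of ENPP3.

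A called gene TSS of another gene lay on the opposite strand within 1000 nt upstream at 13 of the 65 gene TSSs, 20.0% (11.1% to 31.8%), against 11.5% of all gene TSSs. TFIIE and TFIIH accounted for 4 of them: GTF2E1 faced RABL3 at 228 nt, GTF2H3 faced EIF2B1 at 192, GTF2H1 faced HPS5 at 204 and GTF2H5 faced SERAC1 at 320. In Mediator, MED22 and the ribosomal protein gene RPL7A were closest, at 152 nt. MED31 was 185 nt from C17orf100, MED14 was 452 nt from MED14OS and MED29 was 506 nt from PAF1. The 2 starts of TAF9 were 224 and 532 nt from that of RAD17, TAF5L was 602 nt from URB2, and POLR2H was 878 nt from CLCN2.

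Where such a neighbour was called, a uaTSS seldom was. The neighbour's own start, however, lies on the antisense strand within the window searched for uaTSSs. A low uaTSS share there therefore does not mean that antisense starts were absent. How the calling kept such starts apart from uaTSSs was not tested. Among these 13 gene TSSs, 1 had a uaTSS, that of POLR2H, and 0 had a daTSS, which allows a share of up to 24.7%. Over all genes with a divergent gene TSS, the shares were 16.2% and 7.10%. The authors discarded daTSS calls that had an annotated start at most 1000 nt away on the strand of the daTSS. A divergent neighbour lies on that strand, so this filter alone can lower both daTSS shares. They therefore cannot show whether antisense starts were rarer there, and the part of the filter was not tested. Of the 28 member gene TSSs with neither antisense call, 12 had a divergent gene TSS. Without the 13, a uaTSS was called at 35 of 52 member gene TSSs (67.3%, against 57.9% of all) and a daTSS at 11 of 52 (21.2%, 11.1% to 34.7%, against 31.2% of all). The order of the daTSS shares was therefore kept, but the interval now held the value of all genes.

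A called gene TSS faced a member from within its own beginning, up to 2000 nt downstream, at 3 of the 65 gene TSSs. This share, 4.62% (0.96% to 12.9%), was near the 3.14% of all gene TSSs. ZBTB4 was called 322 nt downstream of the gene TSS of POLR2A on the other strand, TBCB 849 nt downstream of that of POLR2I, and CLCN2 257 nt downstream of the second start of POLR2H.

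The bases at the called starts were read from the genome. The minimal initiator, C or T just before the start and A or G on it, was present at 60% of member gene TSSs (all gene TSSs 66.1%). The dinucleotide CA was present at 13, or 20.0% (all 30.3%), and CG at 12, or 18.5% (all 15.5%). The interval of the CA share, 11.1% to 31.8%, held the value of all gene TSSs. Of the member antisense starts, 26 of 36 uaTSSs and 6 of 11 daTSSs had the minimal initiator, and 10 and 4 had CA. No shares over all uaTSSs or daTSSs are given, so these counts allow no comparison. In the sequences above, POLR2A starts at CA and TBP at TG, while the gene TSS of MED12 has a pyrimidine at both positions.

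TATAA or TATAT, searched on the gene strand only, was present between -35 and -24 at the 3 gene TSSs shown, 4.62% (0.96% to 12.9%), against 3.0% of all gene TSSs. A CpG island covered 58 of the 65, 89.2%, against 82.8%. The 7 outside an island, named after their values were seen, were POLR2K, GTF2E1, TAF5, TAF7, MED19, MED20 and MED24. Median GC content in the 100 nt around the start was 65%, against 68% over all gene TSSs.

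Other motifs were searched on both strands from 150 bases upstream to 50 downstream. CCGGAAG was present at 20 of the 65 gene TSSs, 30.8% (19.9% to 43.4%), against 16.8% of all. Proteasome subunits had it at 10 of 32 gene TSSs, 31.2% (16.1% to 50%), and Pol I and Pol III subunits at 3 of 16, 18.8% (4.05% to 45.6%). GGGCGG, the core of the GC box, was at 53.8% (41.0% to 66.3%) against 64.1% of all gene TSSs, and CCAAT was at 23.1% against 27.5%. AAGATGGC, a core recognized by YY1, was at 9.23% against 4.89%, GCATGCGC, recognized by NRF1, at 6.15% against 4.37%, and the palindrome TCGCGAGA at 3.08% against 2.09%. For each of these motifs other than CCGGAAG, the interval of the members held the share of all gene TSSs. A match describes the letters in the window and not the binding of a factor.

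The 20 promoters with CCGGAAG held 25 copies of it, of which 21 began upstream of the start and 16 within 60 bases upstream. They were spread over Pol II (POLR2C, POLR2D, POLR2H and POLR2K), TFIIA, TFIIF and TFIIH (GTF2A2, GTF2F1 and GTF2H2C), the TAFs (TAF9, TAF12 and TAF13) and Mediator, with 10 genes. In TAF13 a copy began 18 bases upstream of the start, in MED7 12 and in TAF12 24. TFIIE held none.

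**Figure D5:**
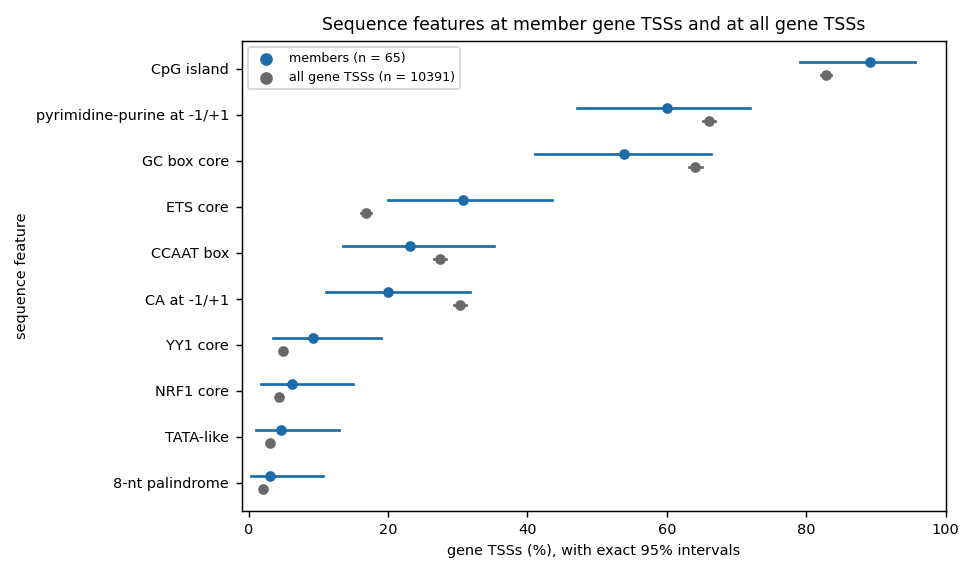
Points are the percent of gene TSSs with each sequence feature, for the 65 member gene TSSs (blue) and all 10391 (grey), with exact 95% intervals as lines. The ETS core, CCGGAAG, was at 30.8% against 16.8%, CA at the start at 20.0% against 30.3%, and CpG islands at 89.2% against 82.8%.

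The other genes listed with the pathway, which the rule leaves out, were 25, with a median FPKM of 17.4 and 23 of them at an FPKM of at least 1. The list is wider than Pol II initiation, since it holds TAF1A, TAF1B, TAF1C and TAF1D, which are TAFs of Pol I. They were at 2.80, 6.36, 17.4 and 29.9, each had a tied gene TSS, and TAF1A and TAF1B had a uaTSS. GTF2B, the bridge between TFIID and Pol II, was at 23.3. DRAP1, a subunit of the NC2 repressor of TBP, was the highest at 121, and its partner DR1 was at 23.4. A gene TSS was tied to 21 of the 25, with 11 uaTSSs and 6 daTSSs. These counts were near the shares over all gene TSSs, 53.1% for a uaTSS and 28.4% for a daTSS. The daTSSs belonged to GTF2IRD1, at 26 nt, CDK7 at 349, SUB1 at 458, POLR2M at 568, BTAF1, which removes TBP from DNA, at 622, and CCNH at 853. CDK7 and CCNH, the kinase and cyclin of TFIIH, thus had a daTSS each. Of the core TFIIH members, only GTF2H1, GTF2H3 and GTF2H5 had a tied gene TSS, and each faced a divergent gene TSS. None of them had a daTSS, against 28.4% of all gene TSSs, and so few starts allow no contrast with CDK7 and CCNH. The filter on daTSSs near an annotated start also covers such divergent promoters.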

How the data were processed

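The analysis used the TSS calls of Start-seq replicate 1 and the RNA-seq table of T-47D cells. The second Start-seq library and the MNase-seq and FAIRE-seq samples were not analysed here. The authors trimmed reads with cutadapt, aligned Start-seq reads to hg19 with Bowtie and called TSSs from uniquely mapped 5′ ends with at least 5 reads, uaTSSs 1 to 1000 nt upstream and daTSSs 1 to 2000 nt downstream. They then dropped daTSSs that had an annotated start at most 1000 nt away on their own strand. Calls that could be the uaTSS of some other, uncalled gene TSS were dropped too. The score column deposited with the calls holds 0 throughout, so depth is unknown. FPKM values were estimated by the authors with Cufflinks 2.2.1 after alignment with TopHat 2.0.4, removal of duplicates with Picard and merging of replicates. The table held 0 further columns of per-sample values.

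Gene models came from GENCODE lifted to GRCh37, in which 75 of the 76 members were found by symbol. FPKM rows were used as listed, and 0.1 was added to FPKM before log2. Intervals are exact (Clopper-Pearson) for shares and from order statistics for medians, both at 95% and over genes. CpG islands were computed without repeat masking, as stretches longer than 200 bp with 50% GC or more and a CpG ratio, observed over expected, above 0.6. Python 3.11.15, numpy 2.4.6, scipy 1.17.1, pandas 2.3.3, numba 0.67.0, pysam 0.24.0 and matplotlib 3.10.9 were used, and the island search, intervals and windows were tested on simulated data. No significance test was run, for lack of replicates.

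Members, gene lists and motifs were chosen with earlier results of these data known. Named are, within each complex, the members of highest and lowest FPKM, and all members under FPKM 1, without or with several gene TSSs, with a daTSS, a divergent gene TSS or a TATA-like sequence, the 5 nearest and 5 farthest uaTSSs, related pairs and the other pathway genes. For 1 member the divergent neighbour is not reported here, nor is 1 further promoter sequence. Remaining genes were named for their role, and those holding CCGGAAG, outside an island or over 100 nt from an annotated start were named after their values were seen. Alternatives were other FPKM minimums, another pseudocount, other ways to tie TSSs to genes, neighbours left out, other sequence patterns and stricter islands.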

Additional observations from a re-analysis of the deposited data

How the results depend on the processing

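Of 38 alternative values computed, 34 stayed within the interval or spread of the reported one. The difference of median log2 FPKM between members and all genes was 5.16 with a pseudocount of 0.1, 3.94 with a pseudocount of 1 and 0.66 over genes with an FPKM of at least 1, where the many genes at or near 0 no longer enter. A pyrimidine and purine in place of CA raised the share of starts from 20.0% to 60%, since more sequences match. Stricter islands, of at least 500 bp, 55% GC and a CpG ratio of 0.65, lowered the share of member gene TSSs in an island from 89.2% to 63.1%. Leaving out the copies of GTF2H2, a choice added after the data were seen, moved the TFIIH median from 5.31 to 14.8. The daTSS share was 13.1% over the 99 gene TSSs within 1000 nt of any member locus and 22.7% over the 44 without another gene TSS within 5000 nt. For these sets and for the stricter islands no share over all gene TSSs is given, so these values describe the members alone. No paired analysis was possible because the RNA-seq values are merged and the TSS calls come from 1 library, and for the same reason no replicate could be left out. Counts of reads behind a call or an FPKM value are unknown, so a missing call cannot be told apart from too few reads.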

Other observations

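The loci listed for 68 of the members held 99 different gene TSSs within 1000 nt, of which 65 were tied to a member by an annotated start. The gene TSSs of POLR2G and TAF6L were the only pair from different members within 100000 nt, 10156 nt apart on the same strand of chromosome 11, at FPKM 265 and 19.9.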
